A study of Mus musculus with 9 samples.

Results

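The miR-148/miR-152 family consists of 3 microRNA (miRNA) genes, Mir148a, Mir148b and Mir152, whose hairpin precursors each give a 5p and a 3p mature miRNA. Its members were taken by name, as every row of the deposited miRNA table that starts with mmu-miR-148a-, mmu-miR-148b- or mmu-miR-152-, and this gave 6 of 1140 rows. Levels were read from small RNA sequencing of whole liver from male C57BL/6 mice, 3 mice per group and each sample a separate mouse. The control group received normal saline by intraperitoneal injection for 8 weeks, and the TAA group received thioacetamide (TAA), a hepatotoxin whose repeated injection leads to liver fibrosis, every 3 days for 8 weeks. The recovery group received the same TAA course and was then left to recover spontaneously for a further 8 weeks. Injections started in mice aged 8 weeks in all groups, so the recovery mice were 8 weeks older at sampling, and age and recovery cannot be told apart. No group carried a transgene or a deletion. The comparisons asked how the liver miRNA profile differed in fibrosis and after its spontaneous reversal.

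A miRNA guides the Argonaute complex to messenger RNAs that pair with its seed, the bases near its 5' end, and lowers their translation and stability. One arm of a hairpin is usually kept as the guide and the other mostly degraded. In this family the 3p arms are the guides, and they share a seed and therefore many predicted targets, with the DNA methyltransferase gene Dnmt1 among the known ones. miR-148a is one of the abundant miRNAs of hepatocytes and is known there as a regulator of the LDL receptor and of the cholesterol exporter ABCA1, while miR-148b and miR-152 are expressed at lower levels in many tissues.

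The mature sequences are shown because they define the family and because the 3p rows differ by only a few bases, which bears on how reads can be assigned to them. Capitals mark the seed, bases 2 to 8 counted from the 5' end. All 6 rows were matched in RefSeq (GRCm38.p6).
mmu-miR-148a-3p: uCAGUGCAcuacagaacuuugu
mmu-miR-148b-3p: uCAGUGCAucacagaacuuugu
mmu-miR-152-3p: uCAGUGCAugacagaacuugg
mmu-miR-148a-5p: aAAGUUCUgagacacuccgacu
mmu-miR-148b-5p: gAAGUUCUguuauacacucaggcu
mmu-miR-152-5p: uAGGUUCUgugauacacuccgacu

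The 3p arms had the same 7 bases at positions 2 to 8, and no other of the 1679 mature mouse miRNAs in RefSeq carried this seed. miR-148a-3p and miR-148b-3p differed at 2 of 22 bases (C9U and U10C, with the base of miR-148a-3p first). miR-148a-3p and miR-152-3p differed at 3 of the 21 bases compared (C9U, U10G and U20G), and miR-148b-3p and miR-152-3p at 2 of 21 (C10G and U20G). The differences thus start after the seed, at position 9 or 10. The 5p arms were less alike. miR-148a-5p differed from miR-148b-5p at 9 of 22 bases with an equal seed, and from miR-152-5p at 10 of 22 bases with 6 of 7 seed bases equal.

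The hairpins show how the arms lie within each precursor, with both mature arms in capitals, the 5p arm first.
Mir148a: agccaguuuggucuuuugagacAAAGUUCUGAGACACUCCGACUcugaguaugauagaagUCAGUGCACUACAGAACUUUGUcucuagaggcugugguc
Mir148b: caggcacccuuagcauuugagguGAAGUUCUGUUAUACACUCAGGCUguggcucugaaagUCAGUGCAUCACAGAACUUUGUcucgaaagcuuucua
Mir152: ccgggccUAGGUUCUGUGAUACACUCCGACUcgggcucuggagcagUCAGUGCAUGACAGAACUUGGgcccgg

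Mir148a lies at chr6:51269812-51269910 on the minus strand (GRCm38) and overlaps no other annotated gene. The nearest protein-coding gene on one side is Nfe2l3, 162759 bases away. Mir148b, at chr15:103285125-103285221 on the plus strand, lies in an intron of Copz1, and Mir152, at chr11:96850393-96850465 on the plus strand, lies in an intron of Copz2. Both host genes are transcribed in the direction of the hairpin and encode zeta subunits of the COPI vesicle coat. A gene of the NFE2 family of transcription factors neighbours each hairpin, with Nfe2 26721 bases from Mir148b and Nfe2l1 20424 bases from Mir152.

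Total counts were 9071847 to 12983378 per sample. TPM, the unit in the deposited table, is a count divided by the sample's total and multiplied by 1000000, with no term for length. Mature miRNAs are read as whole molecules of nearly equal length, so TPM of different members were set side by side, although ligation bias between sequences was not measured. TPM also shifts for every miRNA when a few abundant ones change, so tests were run on counts scaled by TMM, which assumes that most miRNAs do not differ. In TAA vs control, however, 58.3% of the 420 miRNAs tested differed on this scale at a false discovery rate (FDR) below 0.05, which goes against that assumption. The TMM factors of the control samples (0.738 to 0.792) and of the recovery samples (0.766 to 0.887) lay below those of the TAA samples (1.43 to 1.63). Against TMM, scaling by library totals moved the median log2 fold change of all miRNAs. The shift was 1.12 for TAA vs control, -0.86 for recovery vs TAA and 0.18 for recovery vs control. Both scales are therefore given, and within-sample ratios of members, which need no scaling, are the main measure of how they differ.

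miR-148a-3p was by far the most abundant member. With the replicates of each group given in the order 1 to 3, its level was 110308, 119424 and 116769 TPM in control, 91931, 81790 and 67945 TPM in TAA, and 81949, 136454 and 122500 TPM in recovery. All TAA samples lay below all control samples, a separation that 79.5% of the 420 miRNAs tested showed in either direction. Recovery replicate 1 lay within the range of the TAA samples and the other recovery samples above every control sample. The share of miR-148a-3p in all counts was 11.6% ± 0.469 (SD, n = 3) in control, 8.06% ± 1.20 in TAA and 11.4% ± 2.83 in recovery. It ranked 4 of all rows in each of the 9 samples. Shares, ranks and totals use the rows as deposited, where reads of miR-122-5p are also listed under the near-identical row miR-122b-3p. The effect of this repeated listing on TPM and library totals was not tested. With both rows left out, the TMM log2 fold change of miR-148a-3p in TAA vs control was -1.64. On the TMM scale, as counts per 1000000 (CPM), its level was 139266, 161726 and 154647 in control, 64183, 50086 and 41819 in TAA, and 106970, 153802 and 139861 in recovery. On this scale the TAA samples lay below all other samples, recovery replicate 1 included, and the control and recovery groups overlapped. In either direction, 66.7% of 420 miRNAs had no overlap between TAA and control on this scale, and 53.4% of 440 none between TAA and recovery. In bulk liver, fewer cells of a type and less RNA per cell cannot be told apart.

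miR-148b-3p, the closest relative of miR-148a-3p, was far less abundant and stood in another order. Its level was 198, 212 and 205 TPM in control, 421, 430.0 and 333 TPM in TAA, and 164, 240 and 213 TPM in recovery. All TAA samples lay above all other samples in TPM, a separation from control that 79.5% of the 420 miRNAs tested showed in either direction, and from recovery 69.8% of 440. On the TMM scale this separation was absent, with a mean of 269 ± 18.1 CPM in control, 254 ± 45.3 CPM in TAA and 242 ± 28.2 CPM in recovery, and overlapping samples.

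miR-152-3p was present at 319, 295 and 267 TPM in control, at 429, 451 and 458 TPM in TAA, and at 230, 278 and 310 TPM in recovery. Here too the TAA samples were the highest in TPM. In either direction, 79.5% of 420 miRNAs had no overlap in TPM between TAA and control, and 69.8% of 440 none between TAA and recovery. On the TMM scale the TAA samples were instead lower than control, at 299.4, 276 and 282 CPM against 403, 400.2 and 354.2 CPM. There was no overlap, as for 66.7% of the 420 miRNAs tested in either direction. The recovery samples lay between the other groups at 299.7, 313 and 353.7 CPM, by small margins at each end. Such non-overlap was shown by 53.4% of 440 miRNAs in recovery vs TAA and by 27.4% of 391 in recovery vs control.

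The 5p arms were rare. miR-148a-5p reached 160, 168 and 168 TPM in control, 145, 162 and 108 TPM in TAA, and 147.8, 164 and 164 TPM in recovery, so its TAA samples overlapped the control and recovery samples in TPM. On the TMM scale they did not, with 217 ± 13.6 CPM in control, 88.7 ± 19.5 CPM in TAA and 188.0 ± 4.42 CPM in recovery. On this scale 66.7% of 420 miRNAs had no overlap between TAA and control, and 53.4% of 440 none between TAA and recovery. miR-148b-5p was counted at 14.5, 11.8 and 13.3 TPM in control, 21.7, 27.6 and 33.4 TPM in TAA, and 13.5, 15.4 and 14.7 TPM in recovery. miR-152-5p was counted at 14.1, 13.3 and 14.3 TPM in control, 24.6, 21.3 and 18.7 TPM in TAA, and 12.4, 14.1 and 11.3 TPM in recovery. Both thus lay highest in the TAA samples in TPM, where 79.5% of 420 miRNAs separated TAA from control in either direction. TAA and recovery were separated in TPM by 69.8% of 440 miRNAs. On the TMM scale neither lay highest in all TAA samples. There the groups overlapped for miR-148b-5p. For miR-152-5p the TAA samples (11.5 to 17.1 CPM) lay below all control samples (17.8 to 18.9 CPM), a separation shown in either direction by 66.7% of 420 miRNAs. The smallest count behind these values was 121, for which an exact Poisson interval (95%, counting error only) runs from 100.4 to 144.6.

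**Figure D1:**
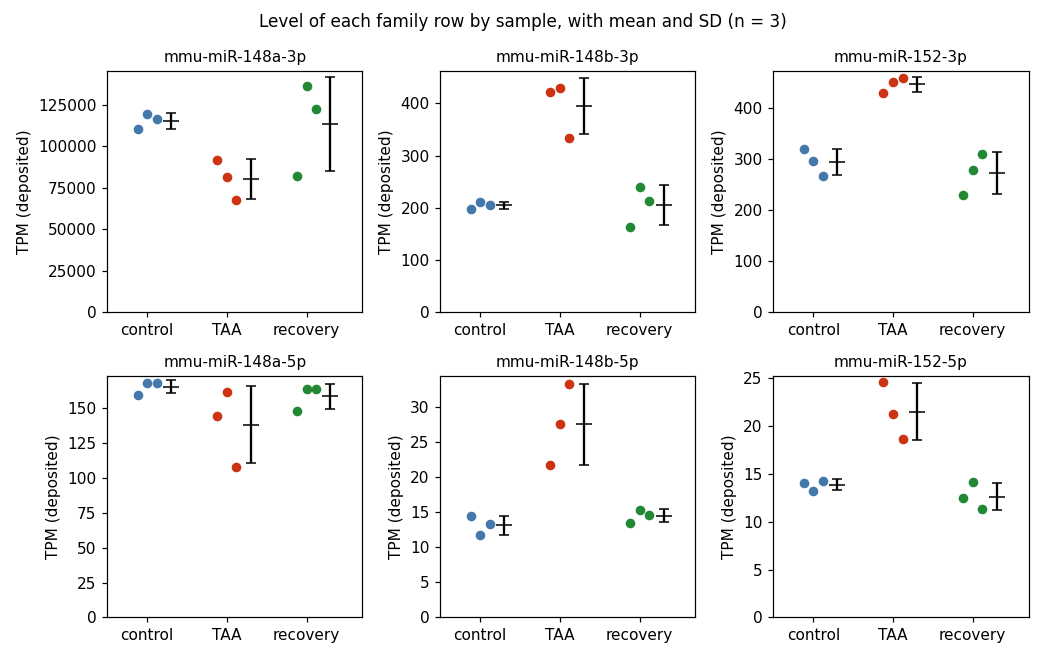
Level of the 6 family rows in TPM as deposited, with 1 point per mouse by group (control, TAA and recovery) and the mean with SD (n = 3) beside each group. miR-148a-3p is lower in all TAA samples than in all control samples, while miR-148b-3p, miR-148b-5p, miR-152-3p and miR-152-5p are higher in all TAA samples than in all others. In either direction, 79.5% of 420 miRNAs separate TAA from control in TPM, and 69.8% of 440 separate TAA from recovery.

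By mean TPM the order in the control group was miR-148a-3p, miR-152-3p (294 ± 25.9), miR-148b-3p (205 ± 6.55), miR-148a-5p (165 ± 4.70), miR-152-5p (13.9 ± 0.546) and miR-148b-5p (13.2 ± 1.35). Only the last neighbours in this order, the miR-152 and miR-148b 5p arms, overlapped between samples. In the TAA group miR-152-3p (446 ± 15.2) and miR-148b-3p (395 ± 53.7) also overlapped, and miR-148b-5p (27.6 ± 5.83) was ahead of miR-152-5p (21.5 ± 2.96), again with overlap. In the recovery group miR-152-3p (272 ± 40.4) and miR-148b-3p (206 ± 38.5) overlapped, as did both rare 5p arms, and the lowest miR-148b-3p sample was level with the highest miR-148a-5p sample. miR-148a-3p alone made up 99.6% ± 0.0329 of the counts of the 3p rows in control, 98.96% ± 0.119 in TAA and 99.6% ± 0.05002 in recovery. The share of miR-148b-3p among the 3p rows was 0.177% ± 0.00214, 0.486% ± 0.0332 and 0.182% ± 0.0144 in the same order of groups, and that of miR-152-3p was 0.254% ± 0.0307, 0.558% ± 0.103 and 0.244% ± 0.0385. The pool of molecules with the shared seed therefore came almost wholly from miR-148a in each group.

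Relative to its relatives, miR-148a-3p fell in the fibrotic liver. There were 556, 565 and 569.8 counts of miR-148a-3p for each count of miR-148b-3p in control, 218, 190.2 and 204 in TAA, and 500.1, 569 and 575 in recovery. The TAA samples stood far below all other samples, and the recovery samples lay around the control samples. How many miRNAs separated the groups in such a ratio was not counted, here or for the ratios below. The ratio was 2.76-fold lower in TAA than in control, a log2 change of -1.46 (SE 0.11, FDR 0.000132). All FDR values here come from edgeR's quasi-likelihood test with Benjamini-Hochberg adjustment over all miRNAs tested, and for a ratio the counts of the denominator miRNA served as the library size. Of the 419 miRNAs so tested, 18.9% were lower relative to miR-148b-3p at an FDR below 0.05, and 34.4% were higher. In recovery vs TAA the ratio was higher by 1.42 on the log2 scale (SE 0.16, FDR 0.000571), where 16.4% of miRNAs were higher. In recovery vs control the log2 change was -0.04 (SE 0.14, FDR 0.919). An exact two-sided permutation test of the mean log2 ratio gave p = 0.1 for both called changes, the smallest value that 3 against 3 samples allow.

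The ratio of miR-148a-3p to miR-152-3p was also lower in TAA. It was 346, 404 and 437 in control, 214, 182 and 148.3 in TAA, and 357, 491 and 395 in recovery, again with the TAA samples below all others. The log2 change was -1.12 in TAA vs control (SE 0.15, FDR 0.000503, with 14.3% of miRNAs lower relative to miR-152-3p) and 1.19 in recovery vs TAA (SE 0.18, FDR 0.00150, with 13.9% higher). In recovery vs control it was 0.07 (SE 0.18, FDR 0.835). miR-152-3p and miR-148b-3p were closer to each other. Their ratio was 1.61, 1.40 and 1.31 in control, 1.02, 1.05 and 1.38 in TAA, and 1.40, 1.16 and 1.45 in recovery, with overlapping groups. Its change in TAA vs control was -0.32 (SE 0.19, FDR 0.194), but -0.48 (FDR 0.0310) without TAA replicate 3, whose ratio lay within the control range. In recovery vs TAA it was 0.22 (SE 0.23, FDR 0.517).

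**Figure D2:**
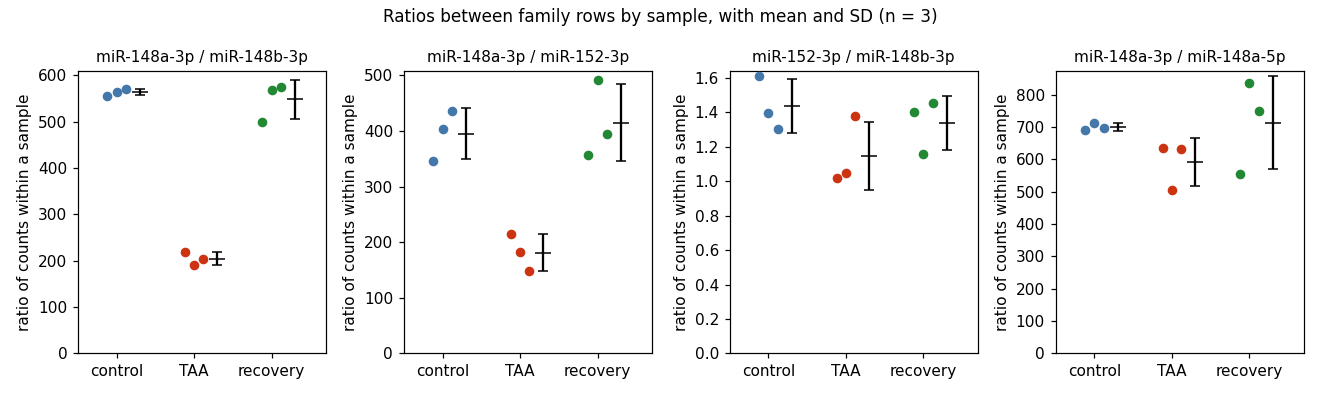
Ratio of the counts of pairs of family rows within each sample, with 1 point per mouse by group and the mean with SD (n = 3) beside each group. The ratios of miR-148a-3p to miR-148b-3p and to miR-152-3p are lower in all TAA samples than in all control and recovery samples, whereas the ratio of miR-152-3p to miR-148b-3p overlaps between groups.

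Both arms of miR-148a fell in TAA vs control on the TMM scale. miR-148a-3p was 3.11-fold lower (log2 fold change -1.64, SE 0.13, FDR 0.000114) and miR-148a-5p 2.60-fold lower (-1.38, SE 0.18, FDR 0.000816), so both met the criteria for a differentially expressed miRNA, which combine the FDR limit of 0.05 with at least a 2-fold difference. miR-152-3p was lower by a smaller amount (-0.52, SE 0.12, FDR 0.00899). The FDR of this change was 0.0520 without control replicate 1 and 0.0526 without control replicate 2, at log2 fold changes of -0.48 and -0.50. The other members did not pass the test, with -0.48 for miR-152-5p (SE 0.19, FDR 0.0554), which passed with size factors of DESeq2 as the scaling (-0.54, FDR 0.0412) and without TAA replicate 1 (-0.60, FDR 0.0266), -0.17 for miR-148b-3p (SE 0.15, FDR 0.366) and -0.06 for miR-148b-5p (SE 0.19, FDR 0.810). In all, 3 of 6 members were lower and 0 higher, beside 26.4% of the 420 miRNAs tested that were lower and 31.9% that were higher. The criteria with the fold change were met by 16.7% of all miRNAs in the lower direction.

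Under library totals the signs of 4 members turned. miR-148b-3p (0.95, SE 0.14, FDR 0.000741), miR-148b-5p (1.06, SE 0.21, FDR 0.00288), miR-152-3p (0.60, SE 0.12, FDR 0.00325) and miR-152-5p (0.63, SE 0.18, FDR 0.0132) were then higher in TAA than in control. On this scale 71.9% of all miRNAs tested were higher and 5.24% lower. miR-148a-3p was still lower under library totals (-0.52, SE 0.11, FDR 0.00411), while miR-148a-5p did not pass (-0.26, SE 0.17, FDR 0.194). A lower miR-148a-3p in TAA vs control was thus called on both scales, and its fold change lay at percentile 6.43 of all miRNAs tested, that of miR-148a-5p at 9.29, that of miR-152-3p at 27.4 and that of miR-148b-3p at 40.0.

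**Figure D3:**
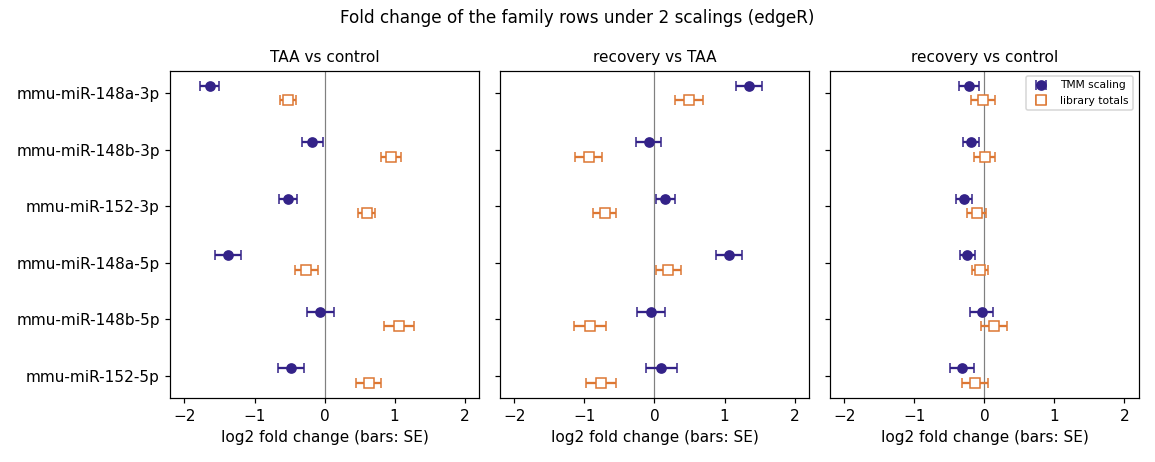
Log2 fold change of the 6 family rows in the 3 comparisons, with bars for the SE, under TMM scaling (filled circles) and under library totals (open squares). In TAA vs control miR-148a-3p lies below 0 under both scalings, while the miR-148b and miR-152 rows lie below 0 under TMM and above 0 under library totals.

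**Figure D4:**
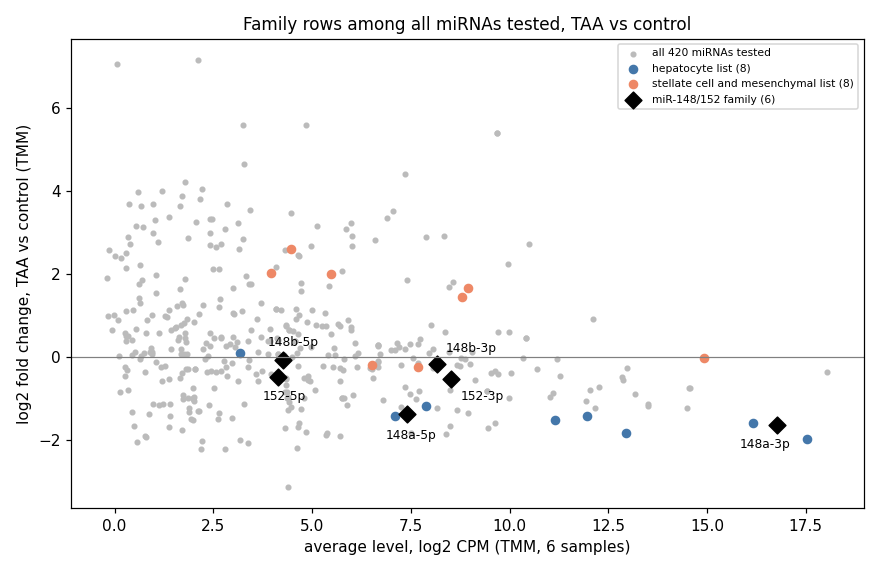
Log2 fold change in TAA vs control against the average level (log2 CPM) for the 420 miRNAs tested, both on the TMM scale, with the 6 family rows as diamonds and the hepatocyte and stellate cell lists in color. The miR-148a rows (-1.64 and -1.38) lie among 7 of the 8 hepatocyte miRNAs, which run from -1.96 to -1.17. miR-802-5p of that list is at 0.11. The miR-148b and miR-152 rows lie nearer to 0. The lists were chosen with earlier results of these data known. Of the red cell list, not colored, miR-451a is at -1.71, miR-144-3p at -1.01 and miR-486a-5p at -0.98.

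After TAA withdrawal, both arms of miR-148a rose again. In recovery vs TAA miR-148a-3p was 2.54-fold higher (1.35, SE 0.18, FDR 0.00144) and miR-148a-5p 2.09-fold higher (1.06, SE 0.18, FDR 0.00367). These 2 of 6 members were higher and 0 were lower, beside 18.4% of the 440 miRNAs tested that were higher and 20.7% that were lower. With at least a 2-fold difference, 10.2% were higher. The log2 fold changes of the other members were -0.09 for miR-148b-3p (SE 0.18, FDR 0.736), -0.05 for miR-148b-5p (SE 0.21, FDR 0.870), 0.15 for miR-152-3p (SE 0.14, FDR 0.415) and 0.10 for miR-152-5p (SE 0.22, FDR 0.753). Under library totals neither miR-148a row passed (0.50 with FDR 0.0600, and 0.20 with FDR 0.368), and the other 4 members were lower by 0.71 to 0.94 (FDR 0.00439 to 0.0147), beside 60% of all miRNAs that were lower and 4.09% higher. The comparisons of TAA with control and of recovery with TAA share the TAA samples.

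Between recovery and control no member was called. The log2 fold changes on the TMM scale were -0.22 for miR-148a-3p (SE 0.14, FDR 0.433), -0.24 for miR-148a-5p (SE 0.10, FDR 0.190), -0.19 for miR-148b-3p (SE 0.11, FDR 0.405), -0.04 for miR-148b-5p (SE 0.16, FDR 0.939), -0.30 for miR-152-3p (SE 0.11, FDR 0.142) and -0.32 for miR-152-5p (SE 0.17, FDR 0.329). Thus 0 of 6 passed with edgeR, beside 14.1% of the 391 miRNAs tested, and DESeq2 also called 0. At an unadjusted limit of 0.05 there were 2 members by edgeR's quasi-likelihood test, miR-148a-5p (0.0416) and miR-152-3p (0.0258), beside 23% of all miRNAs tested. All signs were negative under TMM, whereas under library totals those of miR-148b-3p (0.0045) and miR-148b-5p (0.14) were not.

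No change in the proportion of the arms was called. There were 691, 712 and 695 counts of miR-148a-3p for each count of miR-148a-5p in control, 636, 506 and 632 in TAA, and 554, 834 and 749 in recovery. All TAA samples lay below the control samples, but the log2 change of -0.24 (SE 0.17) had an FDR of 0.213, where 1.19% of miRNAs were lower relative to miR-148a-5p. The recovery samples overlapped the TAA samples (0.27 vs TAA, SE 0.22, FDR 0.293) and ran from below to above all control samples. In miR-148b the 3p arm was counted 15.7 ± 2.13 times as often as the 5p arm in control, 15.0 ± 4.73 times in TAA and 14.1 ± 1.76 times in recovery, and in miR-152 21.2 ± 2.16, 21.1 ± 3.55 and 21.8 ± 4.84 times. None of these ratios was called in any comparison by edgeR, with log2 changes from -0.16 to 0.05. The excess of the 3p over the 5p arm was thus much larger in miR-148a than in its relatives in each of the 9 samples.

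Because the rule for reads that match more than 1 mature miRNA is not stated, the 3p rows were also summed. Their sum fell by 1.63 on the log2 scale in TAA vs control (SE 0.14, FDR 0.000110), was higher by 1.34 in recovery vs TAA (SE 0.18, FDR 0.00149) and differed by -0.22 in recovery vs control (SE 0.14, FDR 0.437). No other row had counts close to those of a member, since the nearest row differed from it by at least 10.4% of the row total. Reads of miR-148a-3p with errors at the distinguishing bases could be counted for its far rarer relatives. That contribution was not measured. The share of miR-148b-3p among the 3p rows was between 0.173% and 0.199% in control and recovery and between 0.454% and 0.520% in TAA.

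miRNAs of known cell types moved in the same samples, in lists that were chosen with earlier results of these data known. In a list of 8 hepatocyte miRNAs, 7 were lower and 0 higher in TAA vs control, with a median log2 fold change of -1.47 beside 0.11 for all miRNAs, and 7 were higher in recovery vs TAA (median 1.22 beside -0.12). Their summed level was 373916 to 393946 CPM in control, 111417 to 119227 CPM in TAA and 285302 to 413592 CPM in recovery. Under library totals 4 were lower and 1 higher in TAA vs control, and 4 were higher and 1 lower in recovery vs TAA. One member of this list, miR-30c-2-3p, was singled out by the study from these libraries. In a list of 8 stellate cell and mesenchymal miRNAs, 5 were higher and 0 lower in TAA vs control (median 1.55), and 5 were lower in recovery vs TAA (median -1.26), with summed levels of 25589 to 31204, 18133 to 39666 and 21976 to 35917 CPM in the 3 groups. Most of this sum was miR-143-3p, which was not called, with an average log2 CPM of 14.9 in TAA and control beside 8.96 for miR-199a-3p. Under library totals all 8 miRNAs of this list were higher in TAA vs control (median 2.67 beside 1.23 for all miRNAs). All 8 were lower in recovery vs TAA (median -2.12 beside -0.98). No listed marker was at 0. The part of cell composition in the changes of the family was not tested.

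Members were also set beside single cell type miRNAs, in ratios that were chosen after their values had been seen. The denominators differ between members, so these ratios do not compare the members with each other. On the TMM scale the log2 fold change in TAA vs control was -1.58 for miR-192-5p itself and -1.96 for miR-122-5p. The ratio of miR-148a-3p to miR-192-5p, a hepatocyte miRNA, was 1.54 ± 0.127 in control, 1.48 ± 0.195 in TAA and 1.65 ± 0.348 in recovery, a log2 change of -0.06 in TAA vs control (SE 0.12, FDR 0.655). The ratio to miR-122-5p, the main hepatocyte miRNA, was 0.570 ± 0.0506, 0.716 ± 0.149 and 0.607 ± 0.240 (0.33 in TAA vs control, SE 0.15, FDR 0.0737). Without TAA replicate 3 this change was 0.47 (FDR 0.00655), and in recovery vs control the change was 0.09 (FDR 0.900) with all samples but 0.38 (FDR 0.0263) without recovery replicate 1. Reads of miR-122-5p are also listed under the near-identical row miR-122b-3p.

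Ratios of miR-152-3p and miR-148b-3p were also taken to miR-199a-3p, a miRNA of stellate and other mesenchymal cells that was itself higher in TAA vs control (1.66, SE 0.19). Other miRNAs of the same list were not, with log2 fold changes of -0.02 for miR-143-3p, -0.20 for miR-145a-3p and -0.25 for miR-145a-5p, and that of miR-148b-3p (-0.17) lay among these. The ratio of miR-152-3p to miR-199a-3p was 1.83 ± 0.283 in control, 0.417 ± 0.0981 in TAA and 1.05 ± 0.125 in recovery. It was lower in TAA than in control by a log2 change of -2.14 (SE 0.30, FDR 7.84e-06), higher in recovery than in TAA by 1.33 (SE 0.33, FDR 0.00103) and lower in recovery than in control (-0.80, SE 0.17, FDR 0.000908). The ratio of miR-148b-3p to miR-199a-3p was 1.27 ± 0.155, 0.377 ± 0.132 and 0.794 ± 0.157 in the same groups. Its log2 change was -1.76 in TAA vs control (SE 0.32, FDR 9.73e-05), while recovery stood above TAA by 1.07 (SE 0.34, FDR 0.00789) and differed from control by -0.68 (SE 0.17, FDR 0.00475). In recovery vs TAA its FDR was 0.0633 without recovery replicate 2, and in recovery vs control it was 0.0926 with all 9 samples fitted. Such changes relative to miR-199a-3p were common, with 66.3% of miRNAs lower in TAA vs control, 55.6% higher in recovery vs TAA and 46.2% lower in recovery vs control.

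As a description over the 9 samples, which share their groups and scaling, the miRNAs whose log2(CPM + 1) was most like that of miR-148a-3p among 225 miRNAs of at least 10 CPM were miR-192-3p (Pearson's r 0.996), miR-30e-3p (0.983), miR-30a-3p (0.980), let-7f-5p (0.977) and miR-30b-5p (0.975). Computed on TPM, miR-192-3p still had the highest r (0.988), whereas let-7f-5p had -0.40. For miR-148b-3p the highest values on CPM were miR-28a-3p (0.740), miR-221-5p (0.716), miR-19b-3p (0.681), miR-21a-5p (0.679) and miR-374b-5p (0.672), of which miR-28a-3p reached 0.976 and miR-21a-5p 0.972 on TPM. For miR-152-3p they were miR-16-1-3p (0.874), miR-881-3p (0.851), miR-30d-3p (0.849), miR-1839-5p (0.847) and miR-29b-3p (0.845), and on TPM miR-881-3p had -0.36 and miR-29b-3p 0.13. Between the arms of miR-148a r was 0.968 on CPM and 0.78 on TPM, while between the arms of miR-148b it was -0.80 on CPM and 0.84 on TPM.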

How the data were processed

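The authors extracted total liver RNA with TRIzol, prepared small RNA libraries with the NEBNext kit, sequenced single-end reads, filtered them with their own scripts and mapped them to mm10 and to miRBase mature miRNAs with Bowtie 1.3.0 (version from the submitters' processing notes). How reads matching more than 1 miRNA were counted is not given in the sources used here. The authors deposited the raw read count and the TPM of each miRNA per sample, in a table of 1106 named and 34 predicted rows. The deposited TPM equalled the count divided by the column sum and multiplied by 1000000, within 4.96e-05. Total counts were 9071847 to 12983378, which sets the precision of the rarer arms.

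Counts were tested with edgeR 4.0.16 (R 4.3.3) over the 6 samples of each comparison, with filterByExpr (minimum count 10), then TMM scaling, the quasi-likelihood F test without covariates and Benjamini-Hochberg adjustment over all rows tested. All 6 family rows passed the filter in each comparison. An SE is the size of the log2 fold change divided by the square root of F. CPM use TMM factors over the 9 samples. For ratios, the counts of the denominator row replaced the library size, so that its own noise is shared by all rows of that fit. The TMM and ratio fits were also run on simulated counts. In these, abundant rows such as miR-148a-3p were left unchanged, and changes were drawn alike in both directions. The simulation therefore does not cover the shift in TMM factors between the groups. Alternatives were DESeq2 1.42.0, limma 3.58.1 on log2(TPM + 1), other scalings and filters, a fit of 9 samples, the replicate number as a block and removal of each replicate. Named miRNAs are all family rows, the 5 rows most like each 3p row in Pearson's r, and cell type lists for hepatocytes, stellate and mesenchymal cells, biliary epithelium, endothelium, leukocytes and red cells. The members and lists were chosen with earlier results of these data known. Sequences are from RefSeq, and positions from RefSeq and GENCODE M21 (GRCm38).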

Additional observations from a re-analysis of the deposited data

How the results depend on the processing

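Of 741 values recomputed under alternatives over 57 results, 649 were rated as kept. For changes this means that they kept their direction and their side of the threshold. Counts of members called were also rated as kept when they moved a little, such as 2 or 4 lower members instead of 3 in TAA vs control. Values below are log2 changes in the order of the comparisons named, and the changes that were not called have signs that carry little weight.

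The scaling mattered most. In TAA vs control, limma on log2(TPM + 1) gave 0.93 for miR-148b-3p, 0.99 for miR-148b-5p, 0.60 for miR-152-3p and 0.59 for miR-152-5p, against 0.95, 1.06, 0.60 and 0.63 with edgeR under library totals. Both settings gave 4 higher members and 1 lower. In recovery vs TAA these settings gave, under totals and limma in turn, 0.50 and 0.47 for miR-148a-3p (FDR 0.0600 and 0.118), -0.94 and -0.95 for miR-148b-3p, -0.71 and -0.72 for miR-152-3p and -0.77 and -0.72 for miR-152-5p, with 0 higher and 4 lower members, and totals gave 0.49 for the summed 3p rows (FDR 0.0636). In recovery vs control miR-148b-3p was at 0.0045 under totals, and miR-148b-5p at 0.14 under totals and 0.13 with limma.

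Filtering at a mean of 10 CPM gave 0.023 for miR-148b-3p and 0.15 for miR-148b-5p in TAA vs control, -0.013 for miR-152-3p and -0.061 for miR-152-5p in recovery vs TAA, and 0.029 for miR-148b-5p in recovery vs control. miR-148b-5p was also at 0.020 in TAA vs control with all 9 samples fitted, and in recovery vs TAA at 0.014 with size factors of DESeq2 and 0.027 with its test. The exact permutation test gave mean log2 ratios of miR-148a-3p to miR-148b-3p of -1.47 (TAA vs control) and 1.42 (recovery vs TAA), and to miR-152-3p of -1.13 and 1.20, each at the smallest possible p of 0.1. The ratio of miR-148a-3p to miR-122-5p in TAA vs control passed without a filter (0.33, FDR 0.00518), and that of miR-148b-3p to miR-199a-3p in recovery vs control did not pass with all 9 samples (FDR 0.0926).

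Leaving out each replicate in turn gave ranges. In TAA vs control they were -0.60 to -0.48 for miR-152-3p, -0.18 to 0.076 for miR-148b-5p, -0.48 to -0.24 for the ratio of miR-152-3p to miR-148b-3p, -0.30 to 0.16 and -0.14 to 0.11 for the 3p to 5p ratios of miR-148b and miR-152, and -0.17 to 0.013 for that of miR-148a-3p to miR-192-5p. In recovery vs TAA they were -0.20 to 0.071 for miR-148b-3p, -0.10 to 0.11 for miR-148b-5p, -0.0045 to 0.31 for miR-152-5p, -0.31 to 0.14 and -0.14 to 0.18 for the arm ratios of miR-148b and miR-152, and -0.49 to 0.050 and -0.0043 to 0.30 for the ratios of miR-148a-3p to miR-122-5p and miR-192-5p. In recovery vs control they were -0.12 to 0.00055 for miR-148b-5p, -0.076 to 0.022, -0.072 to 0.17 and -0.10 to 0.18 for the ratios of miR-148a-3p to miR-148b-3p, miR-152-3p and miR-148a-5p, -0.15 to 0.15 for the arm ratio of miR-152, and -0.16 to 0.38 and -0.065 to 0.24 for the ratios of miR-148a-3p to miR-122-5p and miR-192-5p. The number of members lower in TAA vs control was 2 to 4, with 2 without control replicate 1 or 2 and 4 without TAA replicate 1, where miR-152-5p also passed (-0.60, FDR 0.0266). It was also 4 with size factors of DESeq2 as the scaling. The cause of these shifts was not tested.

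Replicate numbers are shared between groups, but same-numbered mice are different animals, and the correlation of their deviations from the group means ranged from -0.36 to 0.37 over 226 rows, so the numbers do not pair the samples. With the replicate block miR-148a-3p changed by -1.65 in TAA vs control, and 57 of 57 block values kept their direction and call.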

Other observations

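The other cell type lists also moved between groups on the TMM scale. Beside them, 31.9% of all miRNAs tested were higher and 26.4% lower in TAA vs control, with a median log2 fold change of 0.11. In recovery vs TAA 20.7% were lower (median -0.12), and in recovery vs control 12% were higher. Under library totals 71.9% were higher and 5.24% lower in TAA vs control. All 5 biliary epithelial miRNAs, from the miR-200 family, were higher in TAA vs control (median log2 fold change 2.24) and lower in recovery vs TAA (-1.37), and 3 were higher in recovery vs control. Of 5 leukocyte miRNAs, 4 were higher in TAA vs control (median 0.74), and 3 were lower in recovery vs TAA. Both endothelial miRNAs, the arms of miR-126a, were lower in TAA vs control (median -0.68). Under library totals they were higher (median 0.44), though less so than the median of all miRNAs (1.23). Of 3 red cell miRNAs, 2 were lower in TAA vs control (median -1.01), but none under library totals, where the median was 0.10 beside 1.23 for all miRNAs.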
